A study of Mus musculus with 12 samples.

Results

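Aminoacyl-tRNA synthetases load each amino acid onto its tRNA, and 38 of their genes were followed here in mouse Ba/F3 cells expressing *RPL10 R98S* or *RPL10 WT*. The 38 members were taken by name from the 10080 genes listed in both deposited tables. They comprise 20 cytosolic enzymes, 16 mitochondrial enzymes whose symbols end in 2, and 2 scaffold proteins, Aimp1 and Aimp2. Ba/F3 is a mouse lymphoid line, usually described as pro-B, that depends on interleukin-3. All 6 clones were grown from single cells, carried a retroviral vector with human *RPL10*, and had their endogenous *Rpl10* reduced by an shRNA. Clones 11, 13 and 35 expressed the R98S form and clones 28, 29 and 36 the WT form, and values are given below in that order. Each clone contributed 1 library of ribosome-protected fragments (RPF) and 1 mRNA library, both from cells given 100 μg/ml cycloheximide for 5 min, which makes 12 libraries. A clone is 1 line, so p-values measure the spread between these clones.

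Synthetases fall into 2 structural classes, and most of the mitochondrial enzymes are encoded by nuclear genes of their own. Their mRNAs are translated in the cytosol, like those of the cytosolic enzymes, and the proteins are then imported. In the cytosol, the enzymes for arginine, aspartate, glutamate with proline (1 fused protein, Eprs), glutamine, isoleucine, leucine, lysine and methionine assemble with scaffold proteins into the multi-synthetase complex, while the other enzymes work outside it. Phenylalanyl-tRNA synthetase is built from the subunits Farsa and Farsb in the cytosol but is a single chain, Fars2, in mitochondria. Several cytosolic synthetase genes are known targets of ATF4, the transcription factor of the amino acid response.

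The mRNA libraries held 20576796 to 22178094 counted reads in R98S clones and 6617457 (clone 28) to 23136595 in WT clones. The RPF libraries held 3477723 to 10883086 reads in R98S clones and 4611390 to 7162305 in WT clones. *Rpl10* mRNA, to which vector and endogenous transcripts may both contribute, ranged from 1449 to 2905 normalized counts in R98S clones and from 2230.3 to 4501 in WT clones. The summed level of the 3 interleukin-3 receptor genes was 95080.5 to 117075 in R98S clones and 42064 to 80899 in WT clones. Almost all of it was *Csf2rb* and *Csf2rb2*. *Il3ra* overlapped, at 859, 560 and 791 in R98S clones and 1112, 752 and 719 in WT clones. The sum of 5 mast cell and basophil genes, almost all of it *Gata2*, was 12102 to 15764 in R98S clones against 20389 to 26518 in WT clones. Of the other mast cell genes, *Cpa3* went the opposite way, at 644, 253 and 787 in R98S clones and 13.4, 174 and 54.9 in WT clones, *Ms4a2* overlapped, *Kit* was at 0 in all 6 libraries and *Fcer1a* at most 0.86. The 9 pro-B genes summed to 5473 to 6667 against 6026 to 12912, with *Pax5* and *Rag1* at 0 in all 6 mRNA libraries. The 3 macrophage genes, mainly *Emr1*, summed to 418 to 1048 against 4777 to 6632, 3 T cell genes to 49.0 to 77 against 2.47 to 32.2, and 3 fibroblast genes to 3.44 to 10.3 against 0 to 0.825. The T cell sum was mainly *Cd3d*, while *Cd3e* overlapped between the genotypes, at 5.16 or below in each library. Of the 3 fibroblast genes, 0 were high enough to be tested. Of the 6 marker sums, that of the pro-B genes overlapped between the genotypes and the other 5 were separate, and their part in the results below was not tested.

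The cytosolic enzymes were footprinted at far higher levels than the mitochondrial ones in each of the 6 clones. Levels were compared between genes as normalized RPF counts per kb of coding sequence, without the codons left out of the count. In WT clones the median over the 20 cytosolic enzymes was 1341 ± 328 per kb (SD, n = 3), and that over the 16 mitochondrial enzymes was 105 ± 6.96, beside 174 ± 1.83 for the median of the 9294 tested genes with an annotated coding length. In R98S clones these medians were 1315 ± 166, 112 ± 7.36 and 175 ± 1.89. In every clone the lowest of the cytosolic enzymes and scaffold proteins lay above the highest mitochondrial enzyme. The gap was narrowest in WT clone 36, where *Cars* was at 303 and *Iars2* at 273 per kb.

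The order in WT clones was headed by *Gars*, *Nars* and *Sars*. *Gars*, which charges glycine tRNA in cytosol and mitochondria from a single gene, was at 3238 ± 922 RPF per kb. *Nars*, the asparagine enzyme, was at 3201 ± 939, and *Sars*, the serine enzyme, at 2899 ± 588. These neighbours differed by less than their SD. At the other end stood *Pars2* at 30.3 ± 4.39, *Ears2* at 47.4 ± 14.4 and *Wars2* at 56.1 ± 15.2 per kb, the mitochondrial enzymes for proline, glutamate and tryptophan. The levels of *Ears2* and *Wars2* also differed by less than their SD. Among the 9294 genes, the cytosolic enzymes lay between percentiles 70.3 (*Cars*) and 96.6 (*Gars*), with a median of 90.6. The mitochondrial enzymes lay between percentiles 11.5 (*Pars2*) and 55.4 (*Iars2*), with a median of 36.8.

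Each mitochondrial enzyme was set beside the cytosolic enzyme for the same amino acid, with *Eprs* standing in for both *Ears2* and *Pars2*. The cytosolic partner had more RPF per kb in all 6 clones for 16 of 16 pairs. The ratio in WT clones ranged from 4.11 for *Cars* over *Cars2* to 46.3 for *Nars* over *Nars2*, with a median of 13.4 over pairs. For mRNA per kb of exons, the cytosolic partner was higher in all 6 clones for 15 of 16 pairs. The exception was *Lars* over *Lars2*, with a ratio of 0.437 in WT clones.

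**Figure D1:**
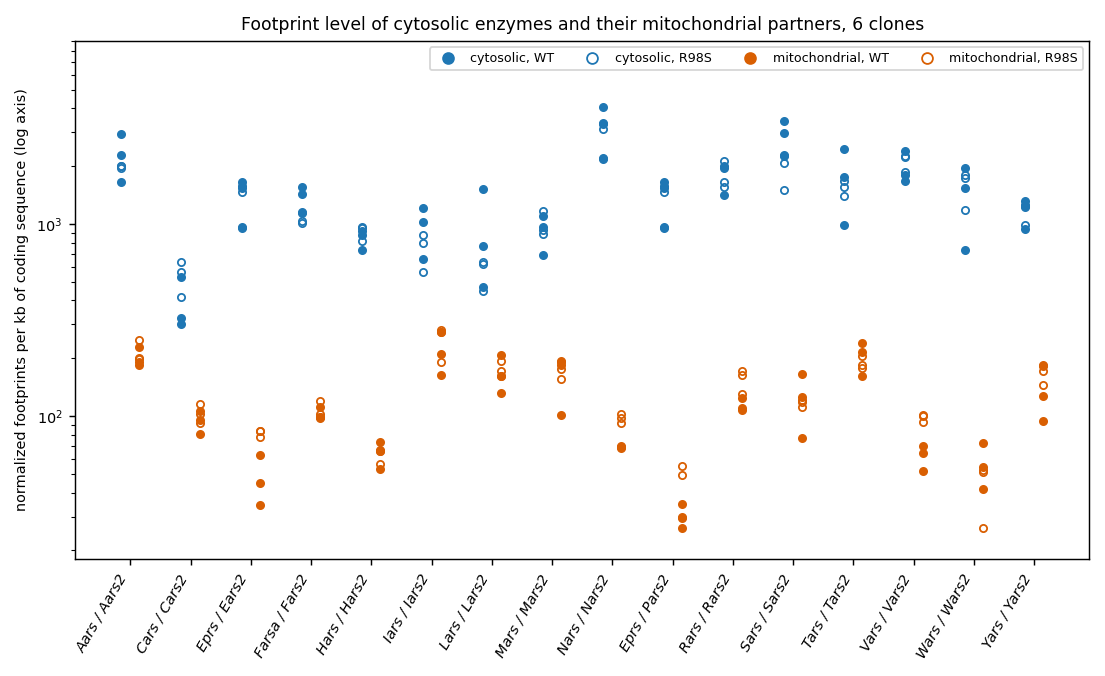
Normalized RPF counts per kb of coding sequence (log axis) for 16 pairs of cytosolic (blue) and mitochondrial (orange) enzymes. Each point is 1 clone (filled, WT; open, R98S), and in each pair all cytosolic points lie above all mitochondrial points.

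Between genotypes, 1 of the 38 members passed the threshold for mRNA. This was *Lars2*, the mitochondrial leucine enzyme, which fell in R98S clones. By estimate, 28 members were above 0 and 10 below, where 51.4% of all tested genes were above 0. The threshold was an adjusted p under 0.1 by limma over all 11344 tested genes, of which 6.94% passed, 3.91% as lower and 3.03% as higher. *Lars2* mRNA was at 3706, 2784 and 2849.9 in R98S clones and 41164, 18423 and 5142 in WT clones. All 3 R98S values lay below all 3 WT values, but WT clone 36 was much closer to the R98S clones than to WT clone 28. The fitted log2 fold change was -2.35 ± 0.59 (SE, adjusted p = 0.0628). Leaving out WT clone 28 gave -1.66 with an adjusted p of 0.0684, and leaving out WT clone 36 gave -3.16 with an adjusted p of 0.00278. With weights that let libraries differ in precision it was -1.22 with an adjusted p of 0.087. Without R98S clone 11, R98S clone 13, R98S clone 35 or WT clone 29, the adjusted p was 0.154, 0.208, 0.142 and 0.132. In bulk samples such as these, fewer cells expressing a gene and less RNA per cell cannot be told apart.

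The footprints of *Lars2* did not pass the threshold. RPF counts were 511, 426 and 455 in R98S clones and 552, 351 and 429.6 in WT clones, and the genotypes overlapped. The fitted log2 fold change was 0.08 ± 0.21 (SE, adjusted p = 0.857). The 2 assays count different parts of this gene, since mRNA reads were counted over all exons and RPF only within the coding sequence. In WT clones *Lars2* stood at percentile 98.1 for mRNA per kb but at percentile 48.8 for RPF per kb.

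The 3′ UTR of *Lars2* carries a stretch that occurs elsewhere in the genome. This UTR is chr9:123461676-123462664 on the plus strand of mm10 (989 bases). It gave 47 alignments elsewhere in the genome over at least 50 bases with at least 80% identity. Neighbouring alignments were not merged, so 47 counts alignments and not separate places. The longest match covered 244 bases at 97.5% identity, and 293 of the bases, between positions 127 and 445 of the UTR, were covered by 10 or more matches. As background, this part of mouse *Lars2* is known to resemble 28S ribosomal RNA. Some short non-coding RNAs, chosen after their values were seen, were also highest in WT clones 28 and 29. *Gm23935*, annotated as a microRNA gene, was at 128, 79.4 and 73.1 in R98S clones and 1622, 723 and 140.3 in WT clones. *Mir6236* was at 24.6, 15.6 and 20.6 in R98S clones and 365, 285 and 54.9 in WT clones. *Rn7sk*, the 7SK small nuclear RNA, was at 6.35, 1.64 and 7.74 in R98S clones and 91.3, 228 and 25.9 in WT clones. In these 3 the genotypes did not overlap, where 23.5% of all genes tested for mRNA did not. Because they were chosen after their values were seen, their likeness to *Lars2* mRNA is a description only. *Gm15564*, chosen likewise, did not follow them, at 2.38, 0.819 and 0.86 in R98S clones and 24.2, 1.65 and 1.57 in WT clones. The rRNA-derived *Gm26917* was at 15.1, 9.83 and 3.44 in R98S clones and 13.4, 3.3 and 3.92 in WT clones and overlapped. The ribosomal RNA genes of the mitochondrial genome, *mt-Rnr1* and *mt-Rnr2*, were at 5.37 or below in each mRNA library. The part of these sequences in the *Lars2* count was not tested.

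**Figure D2:**
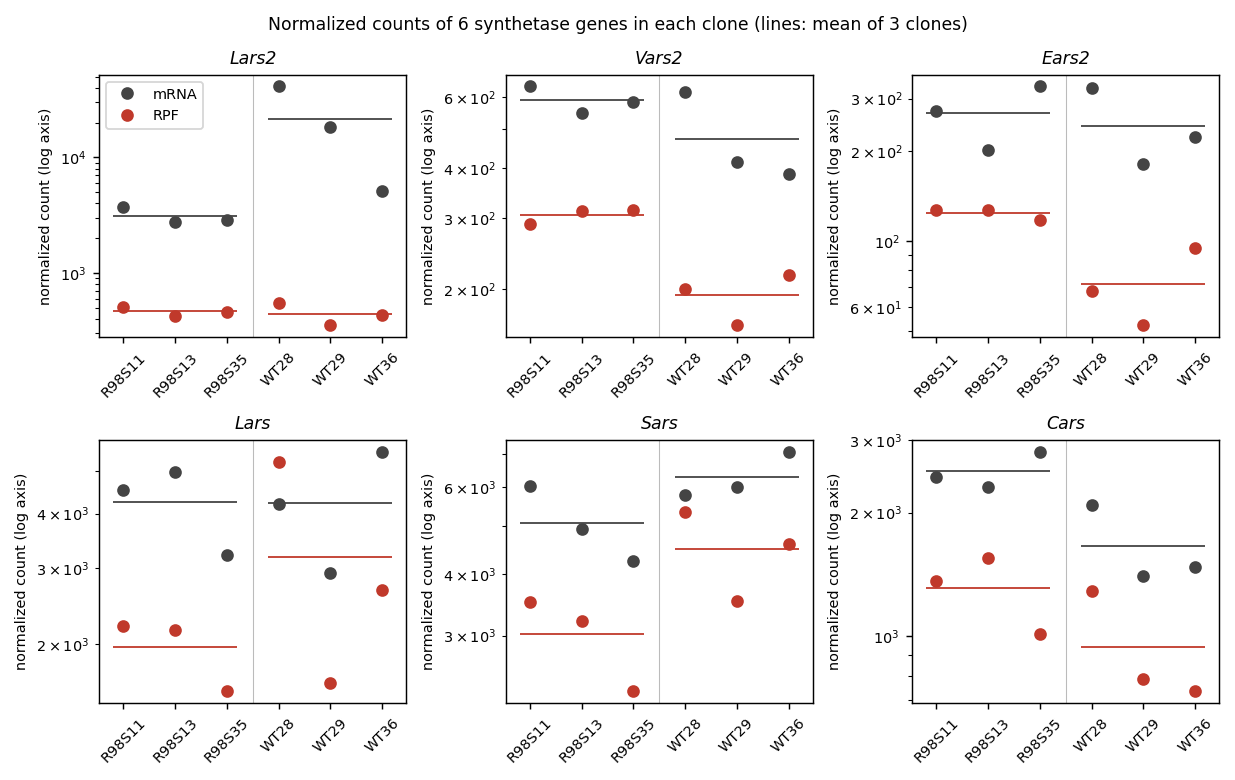
Normalized counts (log axis) of mRNA (grey) and RPF (red) in each clone for 6 members, with lines at the mean of 3 clones. *Lars2* mRNA is at 18423 or above in WT clones 28 and 29 and at 5142 or below elsewhere while its RPF stays between 351 and 552, and *Vars2* RPF is higher in each R98S clone than in any WT clone.

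The other 37 members did not pass the threshold for mRNA. The largest positive estimate was that of *Cars*, the cysteine enzyme. Its mRNA was at 2438, 2314 and 2810.3 in R98S clones and 2092, 1400.5 and 1475 in WT clones, with each R98S clone above each WT clone. The log2 fold change was 0.62 ± 0.20 (SE, adjusted p = 0.124). Without WT clone 28 it was 0.81 with an adjusted p of 0.0278, and with the median of each chromosome removed from each library it was 0.45 with an adjusted p of 0.225. *Cars* lies on chromosome 7, where the median mRNA deviation was 0.10, 0.02 and 0.14 in R98S clones and -0.04, -0.11 and -0.12 in WT clones on the log2 scale.

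*Rars2*, the mitochondrial arginine enzyme, was at 763, 646 and 731 in R98S clones and 486, 479 and 563 in WT clones. Here too the genotypes did not overlap, with a log2 fold change of 0.49 ± 0.18 (SE, adjusted p = 0.19). *Pars2* mRNA was at 252, 335 and 107 in R98S clones and 121, 146 and 186 in WT clones. R98S clone 35 was below all WT clones, and the log2 fold change was 0.49 ± 0.40 (SE, adjusted p = 0.579). *Kars*, which charges lysine tRNA in both compartments, was at 6374, 6664 and 5416 in R98S clones and 3593, 4459 and 5499 in WT clones. The highest WT clone lay just above the lowest R98S clone. The log2 fold change of *Kars* was 0.46 ± 0.19 (SE, adjusted p = 0.248), and 0.67 with an adjusted p of 0.0909 once chromosome medians were removed.

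The next negative mRNA estimates after *Lars2* were those of *Farsa*, *Wars2*, *Sars* and *Aimp1*. *Farsa* was at 1899.7, 1689.5 and 2467 in R98S clones and 3233, 2378 and 2637 in WT clones, which gave a log2 change of -0.45 ± 0.20 (SE, adjusted p = 0.27). *Wars2* was at 227, 173 and 147 in R98S clones and 228, 195 and 257 in WT clones, which gave a log2 change of -0.33 ± 0.25 (SE, adjusted p = 0.547). Both genes overlapped between the genotypes. *Aimp1*, which also gives rise to a secreted cytokine, was at 1667, 1453 and 1605 in R98S clones and 2279.9, 1827 and 1789 in WT clones and did not overlap. Its log2 fold change was -0.31 ± 0.17 (SE, adjusted p = 0.38). Altogether 8 of 38 members did not overlap for mRNA, where 23.5% of all tested genes did not. Of the 8, 6 were higher in R98S clones (11.9% of all tested genes) and 2 lower (11.6%). *Nars2* was among the higher ones, at 355, 323 and 361 in R98S clones and 301, 269 and 233 in WT clones, a log2 estimate of 0.38 ± 0.21 (SE, adjusted p = 0.382). The others not yet described were *Dars*, *Mars* and *Yars2*, whose log2 fold changes of 0.30, 0.42 and 0.40 did not pass the threshold. At an unadjusted p under 0.05 by limma there were 4 members higher and 2 lower, where 8.85% of all tested genes were higher and 9.1% lower. The medians over the cytosolic and over the mitochondrial enzymes were both 0.15, beside 0.01 over all tested genes. Without WT clone 29 the cytosolic median was -0.01.

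For RPF, again 1 member passed the threshold, and it was a different one. *Vars2*, the mitochondrial valine enzyme, rose in R98S clones. Of the 9580 genes tested for RPF, 7.76% passed, 3.13% as higher and 4.62% as lower. *Vars2* RPF was at 289.8, 313 and 316 in R98S clones and 201, 162 and 217 in WT clones. Each R98S clone exceeded each WT clone, and the R98S mean was 1.58 times the WT mean. Its estimate on the log2 scale was 0.67 ± 0.19 (SE, adjusted p = 0.0845). Its mRNA was at 639, 549 and 584 in R98S clones and 618, 415 and 387 in WT clones, where WT clone 28 lay among the R98S clones. The mRNA log2 fold change was 0.35 ± 0.22 (SE, adjusted p = 0.464). With any 1 of the 6 clones left out, the RPF estimate stayed between 0.55 and 0.76 but the adjusted p rose to between 0.109 and 0.262, so the call needed all 6 clones. The antisense gene *Gm20483* shares 465 exon bases with *Vars2* on the opposite strand, and whether strand was used in counting is not given in the sources used here.

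The cytosolic valine enzyme *Vars* did not pass the threshold. Its RPF was at 8481, 8429.8 and 7056 in R98S clones and 9049, 6325 and 6829.9 in WT clones, with overlap between genotypes. On the log2 scale the change was 0.12 ± 0.20 (SE, adjusted p = 0.774). The difference between *Vars2* and *Vars* was not tested.

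*Ears2*, the mitochondrial glutamate enzyme, had the largest positive RPF estimate of the 38 members. It was at 127, 127 and 118 in R98S clones and 67.8, 52.1 and 94.9 in WT clones, and the genotypes did not overlap. The fitted log2 change was 0.82 ± 0.26 (SE, adjusted p = 0.116) by limma, and 0.80 with an adjusted p of 0.0925 by DESeq2. With chromosome medians removed it was 0.63 with an adjusted p of 0.212. *Ears2* mRNA was at 272, 201 and 329 in R98S clones and 325, 181 and 223 in WT clones and overlapped. Its cytosolic counterpart *Eprs* had RPF of 7042, 6579 and 4257 in R98S clones and 7435, 4328 and 6931 in WT clones, which overlapped as well.

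*Nars2* and *Rars2* also had separate RPF values in the genotypes without passing the threshold. *Nars2*, for asparagine, was at 135, 127 and 141 in R98S clones and 95.5, 93.7 and 94.9 in WT clones, which gave a log2 change of 0.50 ± 0.21 (SE, adjusted p = 0.212). *Rars2* was at 287, 219.6 and 275 in R98S clones and 208, 181 and 184 in WT clones, which gave a log2 change of 0.44 ± 0.20 (SE, adjusted p = 0.244). In both genes the mRNA values were separate as well. Their cytosolic partners *Nars* and *Rars* overlapped in RPF, as the values of *Nars* at 5042, 5387 and 3528 in R98S clones and 6572, 3559 and 5400.1 in WT clones show. *Rars* was at 4103, 3171 and 2984 in R98S clones and 3738, 2705 and 3839.9 in WT clones. *Pars2* RPF was at 81.4, 72.9 and 43.7 in R98S clones and 43.9, 38.5 and 51.4 in WT clones, again with R98S clone 35 among the WT clones, and its log2 fold change was 0.52 ± 0.31 (SE, adjusted p = 0.382).

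Over the 16 mitochondrial enzymes, 12 RPF estimates were above 0 and 4 below, with a median log2 fold change of 0.15, beside 0.01 over all tested genes, 51.2% of which were above 0 and 48.8% below. Without *Lars2* the median was 0.18. The summed RPF of the mitochondrial enzymes was 4343, 4247 and 4163 in R98S clones and 4016, 3110 and 4188 in WT clones. WT clone 29 was the lowest of all clones, and WT clone 36 lay above R98S clone 35. Leaving out WT clone 29 lowered the median to 0.09.

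The cytosolic enzymes were spread on both sides of 0 for RPF. Among the 20, 9 estimates were above 0 and 11 below, with a median of -0.03, and 0 of 20 passed the threshold by limma. At an unadjusted p under 0.05, 1 of them was lower and 0 higher. Across all tested genes the shares at that p were 10.7% lower and 9.62% higher. By edgeR and by DESeq2 on recovered reads the counts past the threshold were also 0, where 8.43% and 11.3% of all tested genes passed. Summed RPF of the cytosolic enzymes was 68678, 68651 and 53575 in R98S clones and 84610, 50001 and 69745 in WT clones. The range within the WT clones contained all R98S clones. Without WT clone 28, 5 of the 20 estimates were below 0 in place of 11, and without R98S clone 35, 7 were. Without WT clone 29, 16 were. The median was 0.11 without WT clone 28, 0.10 without R98S clone 35, 0.04 without WT clone 36 and -0.21 without WT clone 29.

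*Sars* had the largest negative RPF estimate. Its RPF was at 3514, 3217 and 2321 in R98S clones and 5342, 3529 and 4592 in WT clones, so that the genotypes did not overlap but R98S clone 11 lay just below WT clone 29. Its log2 change was -0.57 ± 0.22 (SE, adjusted p = 0.172), and the mRNA, at 6013, 4929 and 4250.3 in R98S clones and 5776, 5996 and 7064 in WT clones, overlapped. *Sars* is on chromosome 3, where the median RPF deviation was 0.12, -0.30 and -0.22 in R98S clones and 0.14, 0.20 and 0.14 in WT clones. With chromosome medians removed, the RPF change of *Sars* was -0.28 with an adjusted p of 0.507. *Sars2* RPF, at 176, 181 and 166 in R98S clones and 246, 116 and 187 in WT clones, overlapped too.

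*Lars*, the cytosolic leucine enzyme and a sensor of leucine for mTORC1, had RPF of 2206, 2154 and 1562 in R98S clones and 5262, 1625 and 2661 in WT clones. The high value of WT clone 28 stood alone. The log2 fold change of -0.54 ± 0.35 (SE, adjusted p = 0.419) became -0.09 without that clone. *Lars* mRNA, at 4531, 4992 and 3217 in R98S clones and 4211, 2919.8 and 5551 in WT clones, was not high in WT clone 28. *Iars*, the isoleucine enzyme, had RPF of 2963, 3255 and 2086 in R98S clones and 4510.0, 2465 and 3818 in WT clones. *Iars2* had 834, 815 and 568 in R98S clones and 626, 489 and 812 in WT clones. Both overlapped between genotypes.

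*Cars* RPF was at 1362, 1553 and 1014 in R98S clones and 1293, 790.2 and 738 in WT clones, with R98S clone 35 and WT clone 28 overlapping. The log2 fold change was 0.50 ± 0.25 (SE, adjusted p = 0.285). *Cars2* was at 148, 184 and 163 in R98S clones and 153, 171 and 129 in WT clones. *Wars2*, one of the least footprinted members, was at 53.2, 26.8 and 52.1 in R98S clones and 73.6, 42.7 and 55.3 in WT clones, and cytosolic *Wars* at 2482, 2415 and 1631 in R98S clones and 2704, 1016 and 2135 in WT clones. The tryptophan enzymes thus overlapped in both compartments. *Farsa* RPF was at 1483, 1522 and 1679 in R98S clones and 2279, 1689.7 and 2089 in WT clones and did not overlap, with a log2 fold change of -0.36 ± 0.18 (SE, adjusted p = 0.286). With chromosome medians removed these changes were -0.17 for RPF and -0.24 for mRNA. In all, 6 of 38 members did not overlap for RPF, where 25.3% of all tested genes did not. They were 4 mitochondrial members higher in R98S clones (12.5% of all tested genes) and 2 cytosolic members lower (12.8%).

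Other settings called more or different genes, members and non-members alike. Library weights called 26.1% of all tested genes for mRNA and 18.8% for RPF, against 7 and 4 of the 38 members. With chromosome medians removed, 6.08% of all tested genes passed for mRNA, and *Kars* passed among the cytosolic enzymes. DESeq2 on recovered reads called 11.3% for mRNA, *Cars* being the cytosolic enzyme called.

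**Figure D3:**
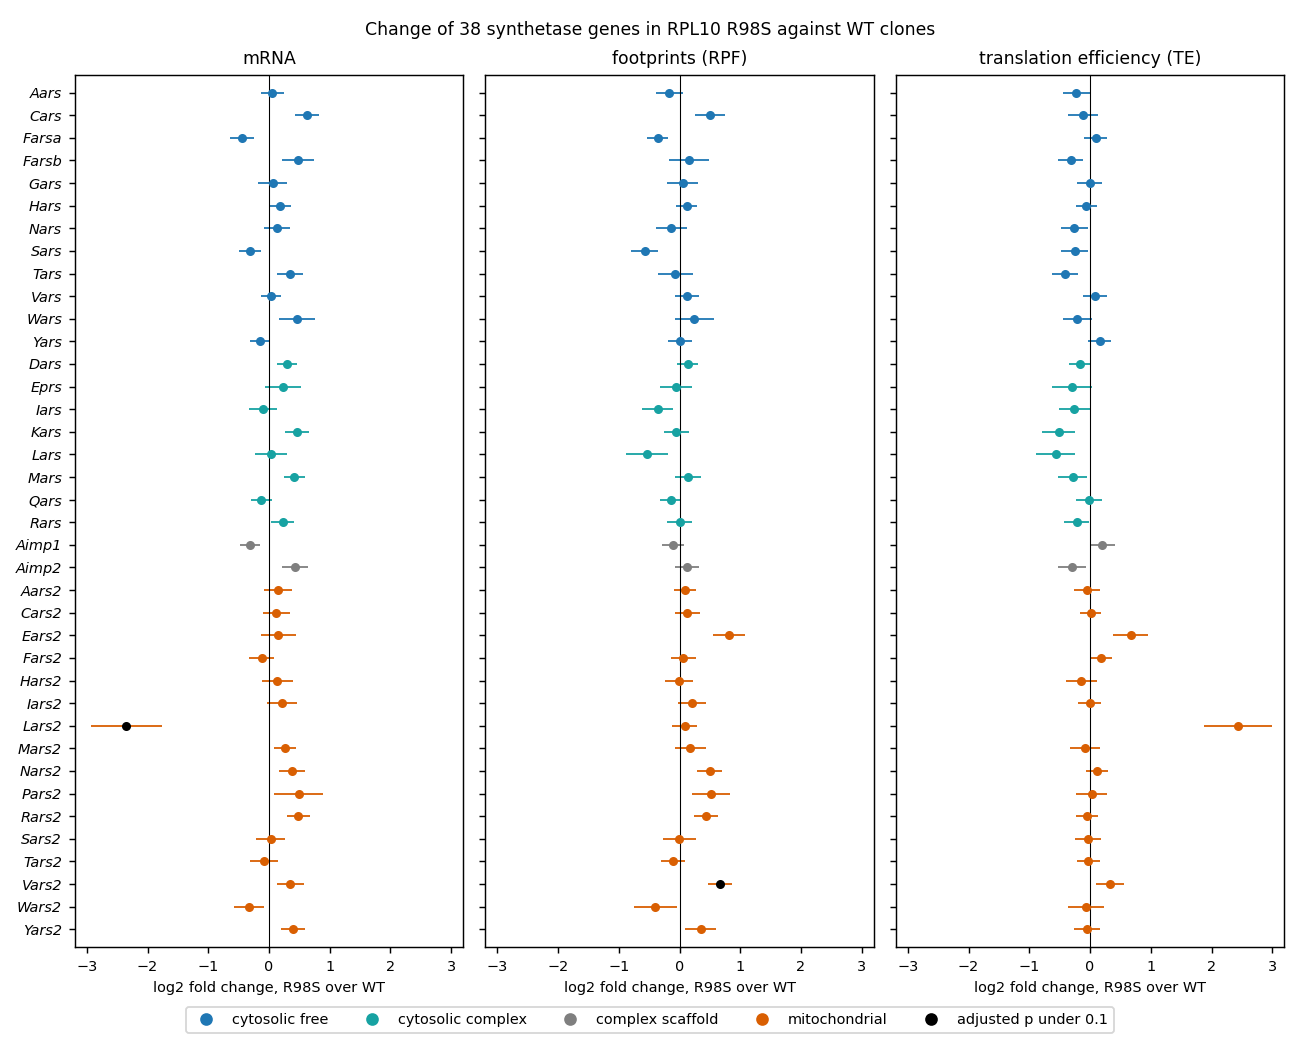
Log2 fold change of R98S over WT clones (points) with its SE (bars) for 38 members in mRNA, RPF and TE, coloured by group. Black points mark an adjusted p under 0.1, which are *Lars2* for mRNA (-2.35) and *Vars2* for RPF (0.67), with 0 in TE.

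Translation efficiency (TE) was the ratio of RPF to mRNA within a clone, which has no absolute scale and was compared only between clones. None of the 38 members passed the threshold for TE, where 0.0221% of 9043 tested genes passed, 2 in all and both lower. With limma, 2 members were higher at an unadjusted p under 0.05, *Lars2* and *Ears2*, where 4.16% of all tested genes were higher and 7.85% either way. The edgeR and DESeq2 interaction models called 0 members, where 0.0332% and 0.0663% of all tested genes passed. Library weights called 2 members, *Lars2* and *Ears2*, and 8.8% of all tested genes. *Lars2* had the highest TE estimate of all 9043 genes. Its TE was 0.138, 0.153 and 0.16 in R98S clones and 0.0134, 0.019 and 0.0835 in WT clones, which gave a log2 change of 2.43 ± 0.56 (SE, adjusted p = 0.562). All 3 R98S clones were above all 3 WT clones. Without WT clone 36 the *Lars2* TE estimate was 3.23 with an adjusted p of 0.00982. Without R98S clone 11, 13 or 35 the adjusted p was 0.921, 0.9998 and 0.419. Without WT clone 28 or 29 it was 0.310 and 0.676, and the estimate was 1.91 and 2.16. The *Lars2* mRNA count includes the 3′ UTR described above and its RPF count does not, and the part of this in its TE was not tested. *Ears2* TE was 0.465, 0.628 and 0.357 in R98S clones and 0.209, 0.287 and 0.426 in WT clones, which overlapped, with a log2 fold change of 0.67 ± 0.29 (SE, adjusted p = 0.629).

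The TE estimates of the cytosolic enzymes were mostly below 0. Of the 20, 17 were below 0, with a median log2 fold change of -0.22, where 50.2% of all tested genes were below 0. In the multi-synthetase complex 8 of 8 enzymes were below 0, with a median of -0.27, and among the free enzymes 9 of 12 were, with a median of -0.17. The mitochondrial enzymes had 9 of 16 below 0 and a median of -0.01.

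WT clone 28 stood apart in these TE values. TE was highest in that clone for 13 of the 20 cytosolic enzymes and for 7 of the 8 enzymes of the complex, but for 5 of the 16 mitochondrial enzymes and 34.2% of all tested genes. As a median over the 8 complex enzymes, log2 TE in WT clone 28 was 0.64 above the mean of the 6 clones, while WT clones 29 and 36 were at -0.08 and -0.05 and R98S clones at 0.01, -0.22 and -0.21. Without WT clone 28, 12 of the 20 cytosolic estimates were below 0 and their median was -0.06. WT clone 28 is also the clone with the shallowest mRNA library, and the part of depth in its TE values was not tested.

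*Lars* had the lowest TE estimate. Its TE was 0.487, 0.431 and 0.485 in R98S clones and 1.25, 0.557 and 0.479 in WT clones, and the log2 fold change of -0.57 ± 0.32 (SE, adjusted p = 0.666) was -0.14 without WT clone 28. *Kars* TE was 0.463, 0.404 and 0.408 in R98S clones and 0.959, 0.487 and 0.478 in WT clones, with each WT clone above each R98S clone. Its estimate on the log2 scale was -0.52 ± 0.27 (SE, adjusted p = 0.653), and -0.19 without WT clone 28. *Tars*, for threonine, was also separate at 0.477, 0.505 and 0.444 in R98S clones and 0.846, 0.546 and 0.549 in WT clones, with a log2 fold change of -0.41 ± 0.22 (SE, adjusted p = 0.651), and -0.21 without WT clone 28. *Tars2* was at 0.395, 0.442 and 0.517 in R98S clones and 0.429, 0.458 and 0.486 in WT clones and overlapped. Across the 38 members, 4 did not overlap for TE, where 14.8% of all tested genes did not. *Lars2* was higher in R98S clones (7.45% of all tested genes), and *Kars*, *Tars* and *Aimp2* were lower (7.36%). *Vars2* TE was 0.454, 0.571 and 0.541 in R98S clones and 0.325, 0.391 and 0.562 in WT clones, which overlapped.

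**Figure D4:**
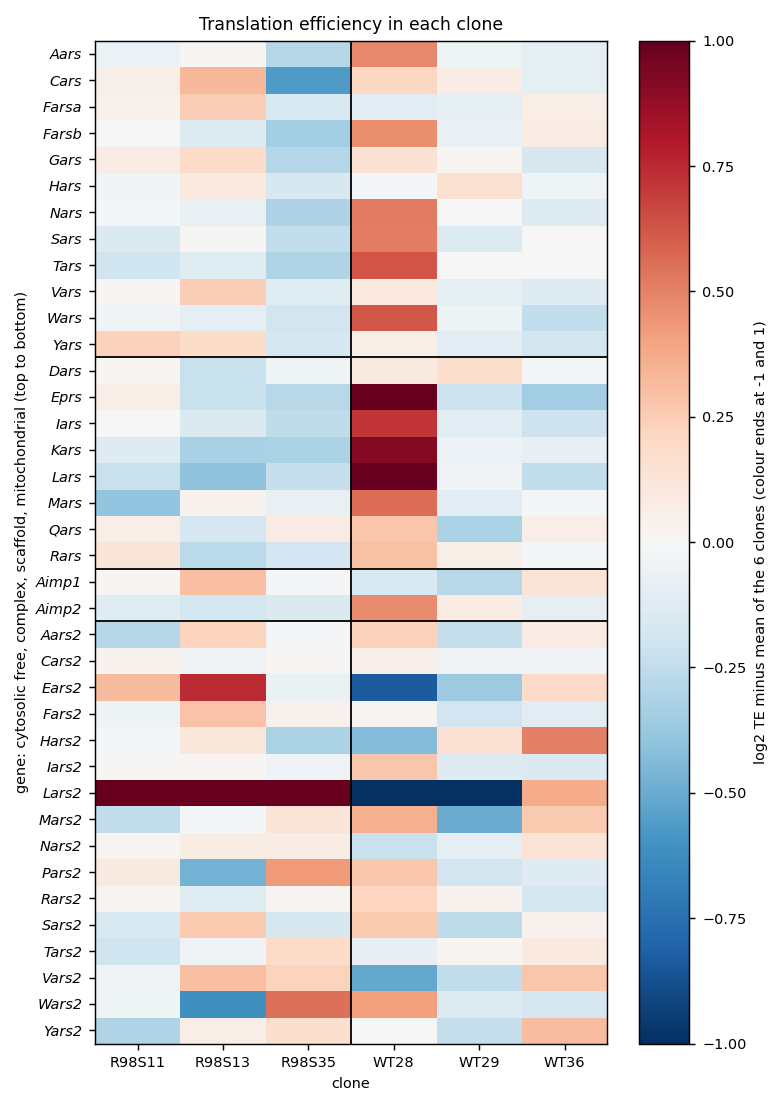
Log2 TE of each member in each clone minus its mean over the 6 clones (colour, ending at -1 and 1), with lines between groups and genotypes. For 7 of the 8 complex enzymes the value is highest in WT clone 28 (median 0.64 over the 8). *Lars2* is above its mean in the R98S clones and below it in WT clones 28 and 29.

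Subunits of 1 assembly were compared by their RPF per kb. *Farsb* mRNA was at 2218, 2352 and 1526 in R98S clones and 1598, 999.6 and 1866 in WT clones and its RPF at 1039.7, 1013 and 566 in R98S clones and 1035, 447 and 930.3 in WT clones, both with overlap. Its TE was 0.469, 0.431 and 0.371 in R98S clones and 0.648, 0.447 and 0.499 in WT clones, again with overlap. The *Farsa* over *Farsb* ratio was 1.66, 1.75 and 3.46 in R98S clones and 2.57, 4.41 and 2.62 in WT clones, and an exact permutation test of the 3 against 3 ratios gave a two-sided p of 0.4. The scaffold gene *Aimp2* had RPF of 856, 821 and 672 in R98S clones and 859.8, 596 and 712 in WT clones. *Aimp1* had 1730.5, 1843 and 1639 in R98S clones and 2105, 1546 and 2014 in WT clones. The *Aimp1* over *Aimp2* ratio was 2.03, 2.25 and 2.45 in R98S clones and 2.46, 2.60 and 2.84 in WT clones. These ratios did not overlap, but R98S clone 35 lay just below WT clone 28. The exact two-sided permutation p of 0.1 is the smallest that 3 against 3 clones can give. The *Aimp1* over *Eprs* ratio was 1.23, 1.40 and 1.92 in R98S clones and 1.41, 1.78 and 1.45 in WT clones. It overlapped, with an exact two-sided permutation p of 0.8. *Aimp2* mRNA shares 487 exon bases with *Eif2ak1* on the opposite strand. *Aimp2* TE, at 2, 1.92 and 1.97 in R98S clones and 3.02, 2.29 and 2.04 in WT clones, was lower in each R98S clone, with a log2 fold change of -0.30 ± 0.23 (SE, adjusted p = 0.715). *Aimp1* TE was 1.04, 1.27 and 1.02 in R98S clones and 0.923, 0.846 and 1.13 in WT clones. *Fars2* TE was 0.491, 0.621 and 0.523 in R98S clones and 0.518, 0.444 and 0.472 in WT clones, and both overlapped.

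The remaining members, *Aars*, *Gars*, *Hars*, *Yars*, *Dars*, *Mars*, *Qars*, *Aars2*, *Hars2*, *Mars2* and *Yars2*, did not pass the threshold in any of the 3 measures. Their RPF estimates lay between -0.17 (*Aars*) and 0.35 (*Yars2*). *Aars* shares 1326 exon bases with *Exosc6* on the same strand, and *Hars* shares 195 with *Hars2* on the opposite strand, so their mRNA counts may include reads of the neighbour.

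Other genes of tRNA charging were taken as a list. Of 21 listed partners, such as the tRNA exporter *Xpot*, the elongation factor *Eef1a1* that carries charged tRNA to the ribosome and its mitochondrial counterpart *Tufm*, all 21 were tested for mRNA and 19 for RPF and TE. The threshold was passed by 0 of them in each measure by limma. At an unadjusted p under 0.05 there was 1 for mRNA, which was higher (8.85% of all tested genes were), 0 for RPF (9.62% higher and 10.7% lower) and 1 for TE (7.85% in either direction). Their median log2 fold change was 0.02 for mRNA and 0.14 for RPF.

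Among 20 ATF4 targets and amino acid response genes, 18 were tested for mRNA, with 1 higher and 1 lower past the threshold, where 3.03% and 3.91% of all tested genes were. At an unadjusted p under 0.05 there were 1 higher and 2 lower for mRNA (8.85% and 9.1% of all tested genes) and 1 higher and 3 lower for RPF (9.62% and 10.7%). *Psph*, the last enzyme of serine synthesis, rose in mRNA from 59.4 ± 11.5 to 482 ± 65.1 normalized counts (SD, n = 3), with a limma adjusted p of 0.000297. *Atf5*, a transcription factor related to ATF4, fell in mRNA from 475 ± 279 to 143 ± 39.7 (adjusted p = 0.0755). For RPF 18 were tested and *Psph* alone passed, and for TE 0 of 17 did by limma, with 3 at an unadjusted p under 0.05, where 7.85% of all tested genes were. *Asns*, asparagine synthetase and a classical ATF4 target, had log2 fold changes of 0.11 for mRNA and -0.16 for RPF and did not pass.

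The promoters of the synthetases were searched for TTGCATCA, the core of the composite element that ATF4 binds with C/EBP partners, on both strands and from 250 bases before to 50 after the RefSeq start (GRCm38.p6). A promoter was found for 29 of the 38 members, 13 of them cytosolic enzymes and 14 mitochondrial ones. The motif was in 4 of the 13 cytosolic genes (*Aars*, *Iars*, *Tars* and *Yars*) and 0 of the 14 mitochondrial genes, where 0.895% of 32851 promoters in the table held it. The looser form TTNCATCA, which includes the first, was in 5 of 13 and 0 of 14, against 3.97% of all promoters, and the added gene was *Gars*. The windows below show the match in capitals on the strand of the gene, because these are all members found with a match before or near the start.
Aars, chr8:111033690-111033777, plus strand: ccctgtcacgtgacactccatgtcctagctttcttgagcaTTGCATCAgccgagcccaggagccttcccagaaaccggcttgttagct
Aars, chr8:111033840-111033869, plus strand, looser form: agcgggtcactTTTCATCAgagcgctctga
Tars, chr15:11399659-11399713, minus strand: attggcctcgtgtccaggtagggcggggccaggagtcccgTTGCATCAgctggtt
Iars, chr13:49682126-49682155, plus strand: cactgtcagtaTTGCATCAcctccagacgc
Yars, chr4:129189895-129189924, plus strand, match in reverse: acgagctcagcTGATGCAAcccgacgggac
Gars, chr6:55037931-55038000, plus strand, looser form: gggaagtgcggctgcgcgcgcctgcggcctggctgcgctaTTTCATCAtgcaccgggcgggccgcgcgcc

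The first match in *Aars* began 112 bases before the start and its looser one 10 bases into the transcript. The match in *Gars* began 30 before the start and that in *Tars* 15 before, whereas those in *Iars* and *Yars* lay 8 and 4 bases into the transcript. None of these 5 genes passed the threshold in mRNA, RPF or TE. Their mRNA log2 fold changes were 0.06 for *Aars*, -0.10 for *Iars*, 0.34 for *Tars*, -0.15 for *Yars* and 0.06 for *Gars*. *Atf4* mRNA itself was at 6494, 6216 and 17712 in R98S clones and 18486, 10161 and 14104 in WT clones, with R98S clones 11 and 13 below the other 4 clones. Its RPF was at 332, 538 and 2458 in R98S clones and 1681, 2938 and 2726 in WT clones, where R98S clone 35 lay among the WT clones. The RPF log2 fold change was -1.64 ± 0.57 (SE, adjusted p = 0.138) and did not pass. A match is a description of the sequence only, and binding was not measured.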

How the data were processed

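Ribosome-protected fragments and mRNA of 6 Ba/F3 clones were compared. The authors deposited a table per assay with a signal value for every gene and library, namely its read count after scaling by DESeq2 size factors (normalized count). The table of RPF lists 10080 genes, each above 0 in all 6 libraries, and the table of mRNA lists 41255 genes. Per the study's methods, the authors trimmed footprint reads, removed their rRNA and tRNA reads with Bowtie2, aligned reads to mm10 with TopHat2 2.0.11 and kept primary alignments above a quality minimum, counted in exons for mRNA and, for RPF, in coding sequences without the first 15 and last 5 codons. For RPF they merged 3 technical replicates. Whole reads were recovered: 100% of values were whole multiples of 1 read within 0.01. Reads without molecular identifiers are not independent molecules.

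Tests used limma 3.58.1 with a variance trend on log2(value + 1), for genes with a mean of at least 10 (TE: at least 10 in all 12 libraries), with Benjamini-Hochberg adjustment over all tested genes and a threshold of 0.1. Fold changes are on this log2 scale. TE was the log2 ratio within a clone, with the trend over mean ratios. Clone numbers in the labels pair the assays, and deviations of paired libraries correlated at 0.519 on average (0.218 to 0.681). Alternatives included edgeR 4.0.16 and DESeq2 1.42.0 on recovered reads. The tests were tried on simulated data with the same dispersion for all genes and no deviation shared by the libraries of a clone. That trial therefore does not show how they perform on these clones. Lengths and overlaps came from GENCODE vM21, matches from BLAST 2.17.0, and promoters from RefSeq. The fewest reads of a member in 1 library were 45 for mRNA and 26 for RPF (*Pars2*).

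The members and gene lists were chosen with earlier results of these data known. Genes were named by a rule: those past the threshold, the 5 largest rises and falls in each measure, their partners in the other compartment, the 3 highest and lowest RPF levels, and subunits. *Gatb* and *Adgre1* are listed under the older symbols *Pet112* and *Emr1*. Of the 8 listed rRNA-derived transcripts, 5 were found in the mRNA table and 0 were high enough to be tested. Protein sequences were not analysed here.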

Additional observations from a re-analysis of the deposited data

How the results depend on the processing

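No direction reversed in these data for a value past the threshold. Counts of members past the threshold moved as follows. With library weights, which called 26.1%, 18.8% and 8.8% of all tested genes for mRNA, RPF and TE, 2 cytosolic and 3 mitochondrial enzymes were higher and 1 cytosolic enzyme lower for mRNA. For RPF, 1 cytosolic enzyme was then higher and 2 lower, and for TE 2 mitochondrial enzymes were higher. DESeq2, which called 11.3% of all genes for mRNA, gave 1 cytosolic enzyme higher for mRNA (*Cars*) and 2 mitochondrial enzymes higher for RPF (*Vars2* and *Ears2*). Removing chromosome medians gave 1 cytosolic enzyme higher for mRNA (*Kars*). With 1 clone left out, between 0 and 1 cytosolic enzymes were higher and between 0 and 1 mitochondrial enzymes lower for mRNA. For RPF 0 mitochondrial enzymes were higher in each case, and for TE between 0 and 1 were. The shares of all tested genes called in those fits are not given here, so these counts cannot be set beside them. Cytosolic enzymes with an mRNA change below 0 numbered 5, but 10 with library weights and 4 to 10 with 1 clone left out (10 without WT clone 29). Those with an RPF change below 0 ranged from 5 to 16 with 1 clone left out. Mitochondrial enzymes with a TE change above 0 numbered 7, but 12 with library weights, where their median was 0.11, and 5 to 13 with 1 clone left out (13 without WT clone 28). The cause of these shifts was not tested. TE without the replicate block, which ignores the pairing of libraries by clone, called 0 members, and the cytosolic median stayed at -0.22. The calls of *Lars2* mRNA and *Vars2* RPF held under all 8 other settings each, with adjusted p from 0.00274 to 0.0877 and from 0.0571 to 0.0904, but the *Lars2* estimate ran from -2.81 (DESeq2) to -1.22 (library weights), and that of *Vars2* from 0.57 to 0.68. Leaving *Lars2* out of the mitochondrial medians was added after seeing the data. With union lengths in place of the longest transcript, the log2 ratio of cytosolic to mitochondrial medians in WT clones was 3.64 for RPF per kb (3.65 before) and 3.39 for mRNA per kb (3.40 before). The mRNA levels themselves moved beyond 1 SD, from 1455 to 833 per kb for cytosolic and from 138 to 79.2 for mitochondrial enzymes.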
